A study of Mus musculus with 6 samples.

Results

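DNA replication and G1/S genes were followed in 6 subcutaneous mouse tumours. The set comprised 29 named genes out of 54532 gene IDs in the deposited count matrix, found by matching each symbol to its Ensembl gene ID. The matching uses no measured value, but the list was chosen with earlier results of these data known. RNA was sequenced from tumours of G422, a mouse glioblastoma line, grown under the skin of Kunming mice, an outbred stock. In 3 tumours the cells carried a lentiviral construct labelled shNgb, named as a hairpin against Ngb (neuroglobin), and in 3 the vector, labelled shVec. Apart from that construct the samples are labelled untreated, and the labels give neither the age or sex of the mice nor whether a line came from 1 clone. The series' title speaks of a knockdown, while its design text says the cells were given Ngb, so shNgb stands here for the label. The construct came with the implanted cells, while vessels, leukocytes and fibroblasts come from the host, and the RNA of a whole tumour mixes both.

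Before a cell divides, its genome is copied once. In G1 the origins of replication are licensed: CDC6 and CDT1 load the ring-shaped MCM helicase onto DNA. Entry into S phase is driven by cyclin E and by E2F transcription factors, which bind the promoters of many replication genes, and the helicase is then switched on by CDC45 and the GINS complex. DNA polymerases, their sliding clamp PCNA and enzymes that make deoxynucleotides follow, and transcripts of most of these genes are most abundant around the G1 to S transition. Their summed level is therefore widely read as a measure of proliferation in tumours. In a bulk tumour, fewer cells in S phase and less of a transcript per cell cannot be told apart.

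Promoter sequences are shown first, because E2F factors are known regulators of many genes of this kind. Windows from RefSeq (GRCm38.p6), reaching from 250 bases before to 50 bases after an annotated start, were found by symbol for 24 of the 29 genes. Mcm7 and Uhrf1 have 2 windows each, which makes 26. The windows of Cdc6, E2f1 and Mcm7 and the second window of Uhrf1 lie wholly inside the gene as placed by GENCODE M21. Mcm4, Gins1, Gins2, Pole and Ccne2 have no sequence shown. The E2F words searched on both strands were TTTCCCGC, TTTCGCGC, TTTGCCGC and TTTGGCGC. At least 1 of them occurred in 10 of the 26 windows (38.5%), each of a different gene, against 2.26% of all 32851 windows of the same length. Mcm5 and Mcm6, which encode subunits of the same helicase ring, have words that overlap on opposite strands. Their windows are given 5′ to 3′ on the strand of the gene, with the E2F words in capitals, at chr8:75109259-75109558 (plus strand) for Mcm5 and chr1:128359656-128359955 (minus strand) for Mcm6.
Mcm5: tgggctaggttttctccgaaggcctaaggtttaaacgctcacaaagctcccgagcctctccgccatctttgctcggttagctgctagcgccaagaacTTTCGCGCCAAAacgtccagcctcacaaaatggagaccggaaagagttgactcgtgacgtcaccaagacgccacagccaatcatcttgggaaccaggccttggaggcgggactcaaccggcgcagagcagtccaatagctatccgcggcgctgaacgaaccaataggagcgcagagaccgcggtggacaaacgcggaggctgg
Mcm6: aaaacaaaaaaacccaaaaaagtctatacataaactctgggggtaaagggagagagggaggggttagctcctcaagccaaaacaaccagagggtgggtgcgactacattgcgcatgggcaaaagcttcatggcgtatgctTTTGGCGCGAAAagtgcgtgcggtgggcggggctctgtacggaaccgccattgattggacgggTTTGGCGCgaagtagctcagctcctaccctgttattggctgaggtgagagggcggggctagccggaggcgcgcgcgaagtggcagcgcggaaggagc

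The other 8 genes with a word are Cdc6, Cdt1, Mcm3, Mcm7, Pola1, Pold1, Rfc3 and Uhrf1. A stretch around the word or words, with up to 8 flanking bases on either side, shows how the core recurs in either orientation. For Mcm3 and Mcm7, which have 2 separate words, the word nearer the 3′ end of the window is shown.
Cdc6, chr11:98908005-98908028, plus strand: ggtggagaGCGGGAAAtcgcctgg
Cdt1, chr8:122568039-122568062, plus strand: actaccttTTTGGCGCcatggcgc
Mcm3, chr1:20820263-20820282, minus strand: tgggaagtTTTGGCGCcaag
Mcm7, chr5:138171852-138171875, minus strand: tgacgacgTTTCGCGCcaatttcg
Pola1, chrX:93632278-93632301, minus strand: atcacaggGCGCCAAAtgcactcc
Pold1, chr7:44548766-44548784, minus strand: atcttgtgGCGGGAAAagc
Rfc3, chr5:151651193-151651226, minus strand: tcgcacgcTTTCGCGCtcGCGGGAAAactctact
Uhrf1, chr17:56304120-56304143, plus strand: gagtcgggTTTCGCGCgcccaggc

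The words lay between 185 bases before the annotated start of the window, in the second window of Uhrf1, and 40 bases after it, in Pold1. The CCAAT word, bound by NF-Y, was present in 65.4% of the members' windows and in 37.4% of all windows. In Mcm7 it shares its first base with the last base of the E2F word that begins 17 bases after the start. The CCAAT word was more frequent still, 87.5%, in windows of 16 G2/M genes. Of those windows, 6.25% held an E2F word and 75% held TTTGAA or TTCGAA, the words of the cell cycle genes homology region, against 15.4% of the replication windows and 19.2% of all windows. In 87 windows of other replication and G1/S genes, 28.7% held an E2F word and 44.8% a CCAAT word. Windows of Tyms, Rfc4, Tk1, Ccne1 and Chaf1b held neither an E2F nor a CCAAT word. The window of E2f1 held neither as well, but it lies wholly inside the gene, whose minus-strand start is at chr2:154569892. The sequence upstream of E2f1 was therefore not searched. These are matches of letters in a fixed window, given without a test.

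**Figure D1:**
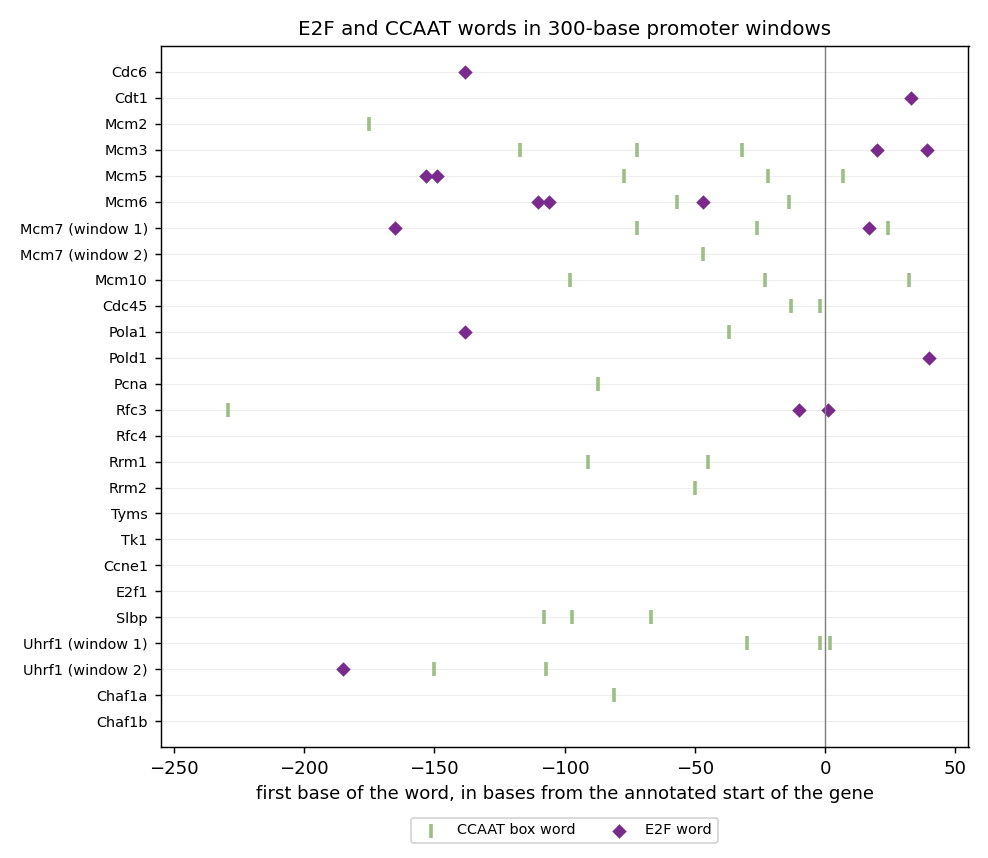
Positions of E2F words (diamonds) and CCAAT words (bars) in the promoter windows of 24 replication and G1/S genes, with the first base of each word in bases from the annotated start on the horizontal axis and 1 window per row. E2F words lie in 10 of the 26 windows, with overlapping pairs in Mcm5 and Mcm6.

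Sequencing gave 21018697, 23913765 and 25620667 reads assigned to genes in the shNgb tumours and 22427004, 20005933 and 19630319 in the shVec tumours. The 29 genes took 0.424%, 0.415% and 0.460% of these reads in shNgb and 0.417%, 0.405% and 0.409% in shVec. Single genes had 480 to 9985 reads in a tumour, and all 29 passed the filter on low counts. Ngb itself stood at 0.868, 0.782 and 0.422 CPM (counts scaled to library size, with TMM factors) in shNgb and at 1.28, 1.16 and 0.662 CPM in shVec, and these values overlap (edgeR adjusted p = 0.9997). Levels this low do not settle whether Ngb was reduced. Of the glioma markers, Olig2 had no reads in any tumour and Gfap and S100b stayed under 0.3 CPM, while Nes averaged 414 ± 28.7 CPM in shNgb and 506 ± 35.3 CPM in shVec (SD, n = 3 each). Sox2 averaged 17.3 ± 4.68 CPM in shNgb and 18.6 ± 2.29 CPM in shVec. Of the 6 glioma and neural markers 3 were tested, and all 3 had a negative log2 fold change, shNgb minus shVec (median -0.11, lowest -0.29). Among them 1 was lower in shNgb without overlap, against 3.43% of all genes. An unadjusted edgeR p under 0.05 was reached by 1, against 2.58% of all genes, and 0 were called at an adjusted p under 0.05. The design text calls the tumours independent without tying each to a mouse, and p-values here reflect only how these samples varied.

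No replication or G1/S gene was called different between shNgb and shVec tumours by the edgeR quasi-likelihood test, and the 95% intervals given below bound each difference. Of the 29 genes, 0 were higher and 0 lower at an adjusted p under 0.05, which is also the result over all 15203 genes tested (0% in each direction). At an unadjusted p under 0.05 the count was again 0 of 29, against 2.58% of all genes, and DESeq2 and limma-voom called 0 of them as well. With upper quartile scaling Tyms passed that unadjusted threshold. For every one of the 29, the 95% confidence interval of the difference lay within 1.5-fold either way, which holds for 59.8% of all genes. It also held for all 20 G2/M genes and for 90.4% of the other replication and G1/S genes tested, so it is not particular to the 29. Among the 29, the lowest lower bound was a fold of 0.784, for E2f1, and the highest upper bound a fold of 1.45, for Ccne2. These intervals are for single genes and do not cover the 29 jointly. The median standard error was 0.09 (log2) for the 29 genes and 0.15 for all genes tested.

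The signs leaned toward shNgb by a small amount. The log2 fold change, shNgb minus shVec, was positive in 24 of the 29 genes, against 50.9% of all genes, and the middle value was 0.06 against 0.0026 over all genes. The genes of a tumour share its library and its cells, so the 24 are not independent observations, and no test was made of the list. Without shNgb replicate 3 the median was 0.02 and 19 genes were positive. Without shNgb replicate 2, or without shVec replicate 1, it was 0.10. The groups did not overlap in 3 genes, Rfc4, Tyms and Slbp, all higher in shNgb, where 3.67% of all genes did so, and 0 genes were lower without overlap, against 3.43% (7.1% of all genes in either direction). Without shNgb replicate 3, 3 genes were higher and 4 lower without overlap, where a group of 2 samples is easier to separate. The shares above are for all 6 tumours, and these counts were not compared with all genes at that setting.

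**Figure D2:**
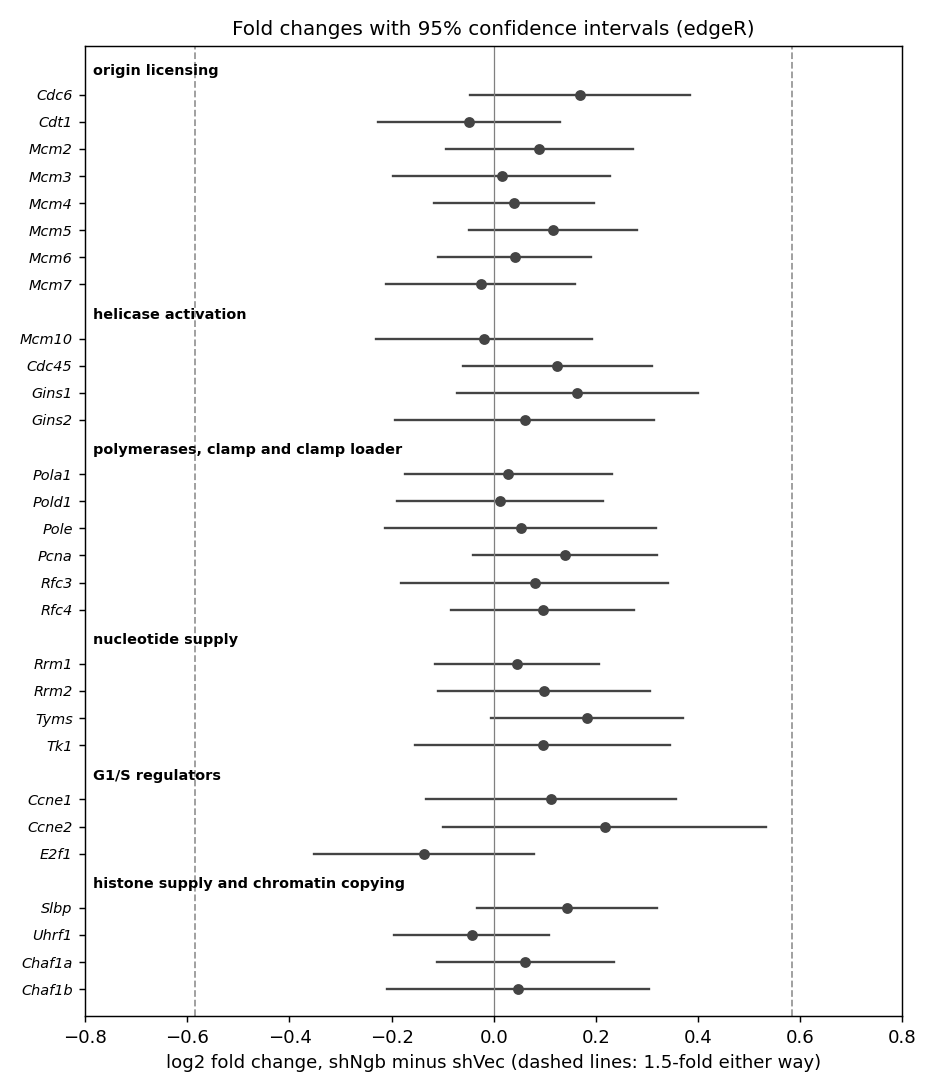
Log2 fold change of each replication and G1/S gene, shNgb minus shVec, with its 95% confidence interval from edgeR, ordered by role. All 29 intervals lie between the dashed lines at 1.5-fold either way, and each includes 0.

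None of the 8 licensing genes separated the groups. Cdc6, the ATPase that recruits the helicase to origins, stood at 67.3, 61.2 and 72.4 CPM in shNgb tumours and at 64.5, 58.1 and 56.2 CPM in shVec tumours. The lowest shNgb value lies below the highest shVec value, and the log2 fold change was 0.17 (SE 0.09, 95% interval -0.05 to 0.38). Cdt1, its loading partner, stood at 187, 177 and 206 CPM in shNgb and at 197, 188 and 203 CPM in shVec, with shNgb tumours at both ends of the range (-0.05, interval -0.23 to 0.13). Among the 6 helicase subunits, Mcm5 had the largest log2 fold change, 0.12 (SE 0.07), from 248, 230.2 and 259.7 CPM in shNgb against 231, 230.1 and 220.2 CPM in shVec. Its middle shVec value and lowest shNgb value nearly coincide. Mcm2 stood at 193 ± 12.1 CPM in shNgb and 181 ± 11.8 CPM in shVec, and Mcm3 at 232 ± 27.7 CPM in shNgb and 229.9 ± 6.36 CPM in shVec (SD, n = 3 each). Mcm4 averaged 249.6 ± 7.09 CPM in shNgb and 243 ± 10.8 CPM in shVec. Mcm6 averaged 355 ± 8.74 CPM in shNgb and 345 ± 12.0 CPM in shVec, and the interval of its log2 fold change, -0.11 to 0.19, was the narrowest of the 29. Mcm7 averaged 330.3 ± 16.6 CPM in shNgb and 336 ± 26.9 CPM in shVec. Across the 8 licensing genes the median log2 fold change was 0.04, with 6 positive and 2 negative.

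Helicase activation genes lay in the same range. Cdc45, which joins the MCM ring to form the active helicase, stood at 100.005, 90.9 and 103 CPM in shNgb and at 86.6, 95.3 and 87.7 CPM in shVec (log2 fold change 0.12, SE 0.08). Only shNgb replicate 2 falls inside the shVec range. Gins1, a GINS subunit, stood at 31.2, 28.96 and 30.0 CPM in shNgb and at 26.5, 29.5 and 24.4 CPM in shVec (0.16, SE 0.10), where shVec replicate 2 is the tumour that overlaps. Gins2, another subunit, averaged 42.8 ± 1.18 CPM in shNgb and 41.0 ± 6.003 CPM in shVec (SD, n = 3 each). Mcm10, which helps fire the assembled helicase, averaged 98.6 ± 10.9 CPM in shNgb and 99.9 ± 4.18 CPM in shVec.

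At the fork, all 6 genes had a positive log2 fold change, with a median of 0.07. Pcna, the gene of the clamp, stood at 375, 324 and 383 CPM in shNgb and at 327, 329 and 327 CPM in shVec. The 3 shVec tumours are nearly equal, and shNgb replicates 1 and 3 lie above them while replicate 2 lies just below (0.14, 95% interval -0.04 to 0.32). Rfc4, a subunit of the complex that loads the clamp, stood at 47.9, 46.3 and 46.5 CPM in shNgb and at 42.8, 45.8 and 43.1 CPM in shVec. Its groups do not overlap, by a margin of less than 1 CPM, and the log2 fold change was 0.10 (SE 0.08). Rfc3, another loader subunit, averaged 47.4 ± 3.27 CPM in shNgb and 44.8 ± 6.29 CPM in shVec (SD, n = 3 each). The catalytic subunits of the 3 replicative polymerases differed by less than their spread. Pola1, of the polymerase that starts each strand, averaged 108 ± 10.7 CPM in shNgb and 105 ± 4.64 CPM in shVec. Pold1, of the lagging strand polymerase, averaged 82.6 ± 7.54 CPM in shNgb and 81.9 ± 3.79 CPM in shVec. Pole, of the leading strand polymerase, averaged 70.1 ± 6.69 CPM in shNgb and 67.6 ± 9.06 CPM in shVec.

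Nucleotide supply held the gene nearest to the threshold. Tyms, thymidylate synthase, stood at 70.0, 67.5 and 68.3 CPM in shNgb and at 64.1, 61.7 and 55.6 CPM in shVec. Its groups do not overlap, and the shNgb tumours lie within a narrow band. The log2 fold change was 0.18 (SE 0.08, 95% interval -0.01 to 0.37), with an edgeR p of 0.0558 unadjusted and 0.9997 adjusted over all genes. Rrm2, the regulated subunit of ribonucleotide reductase, stood at 303, 322 and 382 CPM in shNgb and at 314, 310.2 and 317 CPM in shVec. Only shNgb replicate 3 stands clearly apart from the other 5 tumours, and without it the log2 fold change of 0.10 became -0.0077. Rrm1, the large subunit of that enzyme, averaged 206 ± 10.1 CPM in shNgb and 199 ± 5.62 CPM in shVec (SD, n = 3 each). Tk1, thymidine kinase of the salvage route, averaged 109 ± 10.6 CPM in shNgb and 102 ± 12.6 CPM in shVec.

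The G1/S regulators gave both the largest positive and the largest negative value. Ccne2, cyclin E2, stood at 40.9, 37.3 and 38.5 CPM in shNgb and at 28.8, 41.3 and 30.3 CPM in shVec. A single shVec tumour, replicate 2, is above all shNgb tumours and the other shVec tumours are below them, and the log2 fold change was 0.22 (SE 0.14, 95% interval -0.10 to 0.53). Without shVec replicate 2 it was 0.40, and without shVec replicate 1 it was 0.12. Ccne1, cyclin E1, stood at 49.6, 45.9 and 57.8 CPM in shNgb and at 44.7, 51.2 and 45.9 CPM in shVec (0.11, SE 0.11). E2f1, the transcription factor, stood at 76.5, 84.99 and 74.2 CPM in shNgb and at 92.1, 77.5 and 89.5 CPM in shVec, with a log2 fold change of -0.14 (SE 0.09, 95% interval -0.35 to 0.08). E2f1 ran against most of the genes around it in sign, and its groups overlap through shNgb replicate 2 and shVec replicate 2.

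The 4 genes that serve new chromatin lay in the same range. Slbp, which binds the stem-loop of replication-dependent histone mRNAs, stood at 118, 106 and 109 CPM in shNgb and at 105, 95.7 and 101 CPM in shVec. The groups do not overlap, by a margin of less than 1 CPM, and the log2 fold change was 0.14 (SE 0.08). The edgeR p was 0.0985 unadjusted and 0.9997 adjusted over all genes. Uhrf1, which guides maintenance DNA methylation at the fork, averaged 254 ± 5.71 CPM in shNgb and 262 ± 10.3 CPM in shVec (SD, n = 3 each). Chaf1a and Chaf1b, subunits of the histone chaperone CAF-1, averaged 124 ± 6.50 and 75.4 ± 4.09 CPM in shNgb and 119 ± 5.97 and 72.9 ± 11.2 CPM in shVec.

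Tumours of the same group differed from each other. With each gene centred on its mean log2 CPM over the 6 tumours, the median deviation of the 29 genes was 0.04, -0.04 and 0.10 in shNgb replicates 1, 2 and 3 and 0.02, -0.05 and -0.07 in shVec replicates 1, 2 and 3. The tumour of shNgb replicate 3 had the highest value of 16 genes, and 26 of its 29 values lay above the gene's own mean. The tumour of shVec replicate 3 was lowest in 9 genes and highest in 0. Over the 6 tumours, the highest level of a gene was 1.07 times the lowest for the steadiest gene and 1.44 times for the widest, with a median of 1.21. Each of the 6 roles had its highest median in shNgb replicate 3.

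**Figure D3:**
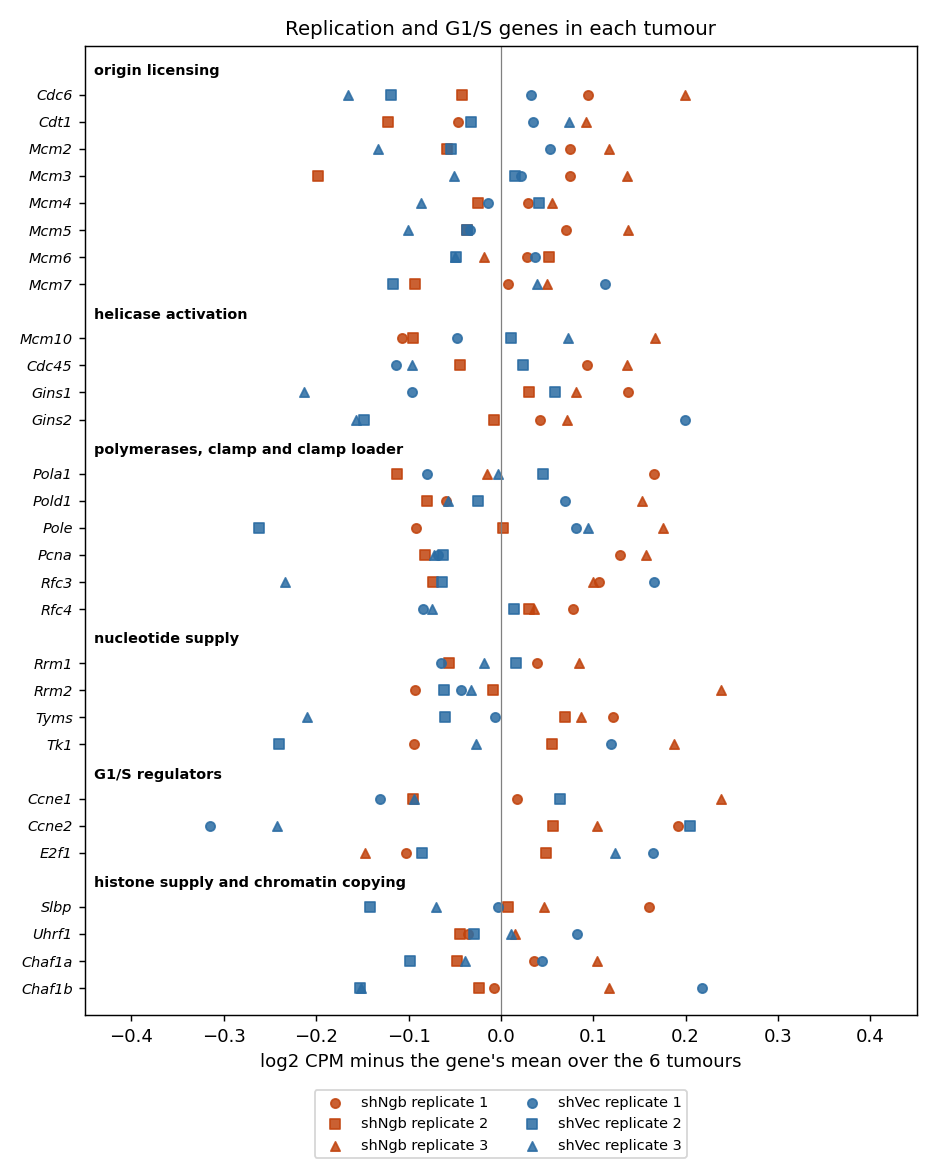
Log2 CPM of each replication and G1/S gene in each of the 6 tumours, as the difference from that gene's mean over the tumours, with groups in colour and replicates by marker. The values of shNgb and shVec tumours interleave in 26 of the 29 genes, and shNgb replicate 3 is the rightmost point in 16.

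Other gene lists also varied between tumours. For 15 genes of the hypoxia response, the median deviation was 0.17, -0.26 and -0.79 in shNgb replicates 1, 2 and 3 and 0.28, 0.27 and 0.20 in the shVec tumours. All 15 had a negative log2 fold change (median -0.55), 9 were lower in shNgb without overlap, against 3.43% of all genes, and 6 had an unadjusted p under 0.05, against 2.58%. None of the 15 was called by edgeR at an adjusted p under 0.05. The hypoxia list was chosen with earlier results of these data known, so its counts are a description and not a test. For the 6 tested of 7 T and NK cell markers the median deviation was -0.69, 0.83 and 1.83 in shNgb and -0.77, 0.59 and -1.23 in shVec. All 6 had a positive log2 fold change (median 1.13), against 50.9% of all genes, with 0 at an unadjusted p under 0.05 and 0 without overlap. The summed level of all 7 T and NK markers ranged over 2.84 to 29.7 CPM in shNgb and 2.49 to 13.9 CPM in shVec. Of these markers Cd3e and Trbc2 were at 0 in shVec replicate 3, and no macrophage, fibroblast or endothelial marker was at 0 in any tumour. The 6 macrophage markers summed to 62.3, 124 and 159 CPM in shNgb and to 53.0, 99.7 and 86.3 CPM in shVec. All 6 were positive as well (median log2 fold change 0.45), with 0 at an unadjusted p under 0.05 and 0 without overlap. The 6 fibroblast markers summed to 2369, 1897 and 1117 CPM in shNgb and 1953, 1633 and 1728 CPM in shVec, mostly from Col3a1. The median deviation of the 5 tested was 0.79, 0.03 and 0.13 in shNgb and -0.04, -0.20 and -0.62 in shVec. Of these 5, 4 had a positive log2 fold change (median 0.41), and Col3a1 was negative. An unadjusted p under 0.05 was reached by 2, against 2.58% of all genes. Higher in shNgb without overlap was 1, against 3.67% of all genes. The sums of 5 endothelial markers lay between 43.3 and 56.2 CPM in shNgb and between 49.2 and 51.8 CPM in shVec, and those of 4 skeletal muscle markers between 5.16 and 6.17 CPM in shNgb and between 6.62 and 16.3 CPM in shVec. The part of these differences in the levels of the replication genes was not tested.

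**Figure D4:**
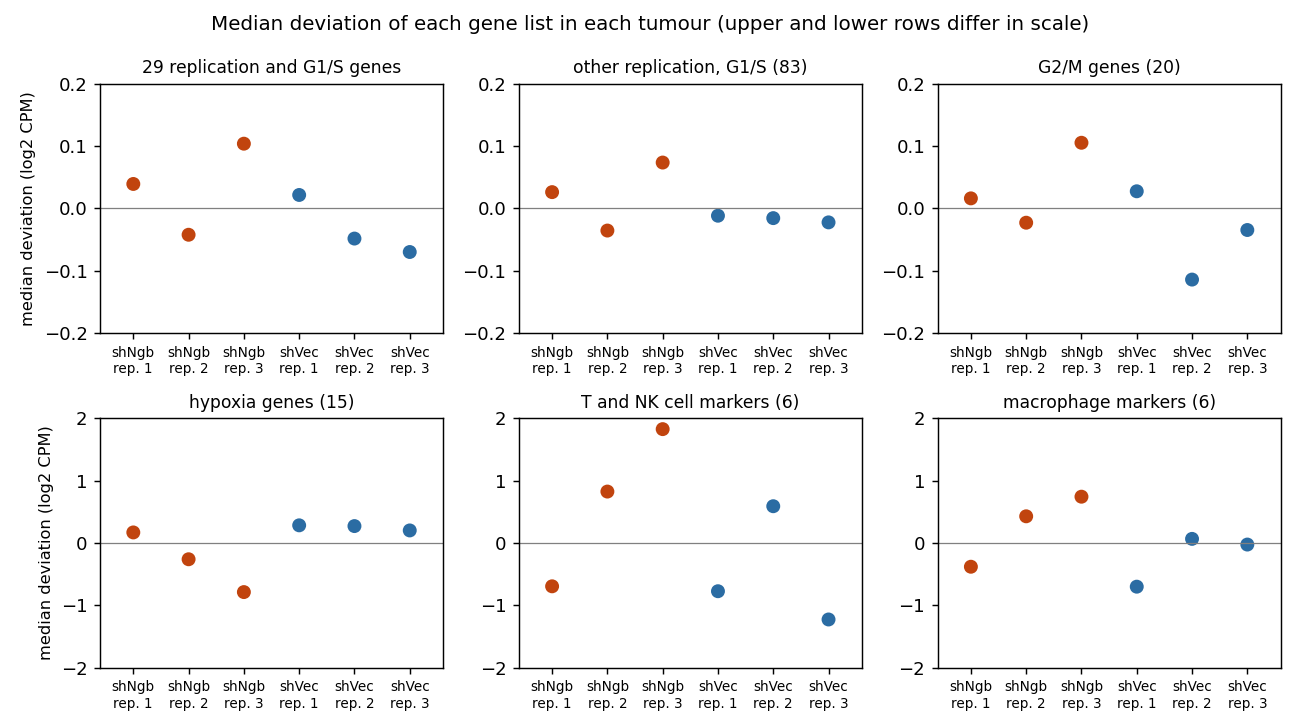
Median deviation of 6 gene lists in each tumour, as log2 CPM centred on the gene's mean, with shNgb tumours left of shVec tumours and the number of tested genes in each title. The upper and lower rows have different scales, and shNgb replicate 3 is the highest point in all upper panels and the lowest in the hypoxia panel.

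No further gene of the pathway passed the test, though the spread of values was wider. Of 84 further replication and G1/S genes, 83 were tested, and Mycn did not pass the filter on low counts. Of the 83, edgeR called 0 higher and 0 lower at an adjusted p under 0.05, and 0 had an unadjusted p under 0.05, against 2.58% of all genes. Positive were 55 (median log2 fold change 0.04, range -0.47 to 0.38), against 50.9% of all genes. The 95% interval lay within 1.5-fold for 75 of the 83 (90.4%). The 4 of smallest p were Ccnd3, cyclin D3 (95.3 ± 2.41 CPM in shNgb and 83.5 ± 11.3 CPM in shVec), Recql4, Pole2 and Cdkn1a (SD, n = 3 each). Recql4, a helicase that acts in replication initiation, averaged 18.3 ± 2.17 CPM in shNgb and 21.6 ± 1.90 CPM in shVec. Pole2, a polymerase epsilon subunit, averaged 20.7 ± 3.10 CPM in shNgb and 17.4 ± 1.79 CPM in shVec. Cdkn1a, which encodes a CDK inhibitor, averaged 28.6 ± 5.86 CPM in shNgb and 36.8 ± 8.77 CPM in shVec. The polymerase, loader and RPA genes had 16 of 19 positive, with a median of 0.07. Origin recognition and licensing control genes had 4 of 10 positive, with a median of -0.02, and fork and helicase activation genes 5 of 12, with a median of -0.02. The 23 tested G1/S regulators had 18 positive and a median of 0.07, the 6 nucleotide genes 4 and 0.03, and the 6 chromatin genes 5 and 0.04.

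The 7 CDK inhibitors had the largest median standard error among the roles of the pathway, 0.21. Their summed level was 324, 354 and 231 CPM in shNgb and 317, 286 and 319.9 CPM in shVec, with the lowest sum in shNgb replicate 3. The median deviation of the 7 was 0.10, 0.16 and -0.20 in shNgb and 0.07, -0.22 and 0.10 in shVec, lowest in shVec replicate 2. The interval of the log2 fold change lay within 1.5-fold for 4 of the 7. Cdkn2a, whose products restrain CDK4 and MDM2, stood at 116, 137 and 70.6 CPM in shNgb and at 106, 108 and 99.1 CPM in shVec, and was chosen here after its values were seen. The interval of its log2 fold change, -0.48 to 0.57, is wider than that of any of the 29 genes. Of the 7 inhibitors 3 were positive, with a median of -0.01.

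Mitosis genes leaned as the replication genes did. All 20 G2/M genes were positive (median log2 fold change 0.08), against 50.9% of all genes, and edgeR called 0 of them at an adjusted p under 0.05. An unadjusted edgeR p under 0.05 was reached by 1, against 2.58% of all genes. Higher in shNgb without overlap were 2, against 3.67% of all genes. Ccnf, a cyclin of G2, stood at 72.5, 72.7 and 82.2 CPM in shNgb and at 68.2, 56.9 and 55.9 CPM in shVec. Its groups do not overlap, and its log2 fold change of 0.33 (SE 0.10) exceeded that of each of the 29 genes. The edgeR p of Ccnf was 0.0111 unadjusted and 0.9997 adjusted over all genes. Cenpe, Birc5 and Nusap1, which act in chromosome segregation and spindle assembly, followed by p with 204 ± 8.86, 95.1 ± 11.8 and 65.8 ± 5.15 CPM in shNgb and 184 ± 13.5, 84.9 ± 1.72 and 58.8 ± 6.31 CPM in shVec (SD, n = 3 each). The difference between the lists was not tested.

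Levels between the 29 genes were compared per length, from the deposited FPKM values averaged over all 6 tumours. Pcna (142) and Rrm2 (116 FPKM) were highest, followed by Mcm7 (74.8), Mcm6 (74.5) and Mcm4 (68.2 FPKM). Pole (6.13), Gins2 (10.2) and Ccne2 (10.3 FPKM) were lowest, so transcripts of the polymerase epsilon catalytic subunit were scarcest per length. The means of Mcm6 and Mcm7 differ by less than the spread of either over the tumours (SD 2.27 FPKM for Mcm6 and 4.68 FPKM for Mcm7). The MCM ring holds its 6 subunits in equal number, and 5 of them lay between 58.8 FPKM (Mcm5) and 74.8 FPKM (Mcm7), while Mcm2 was listed at 26.7 FPKM.

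That gap depends on the gene length used. The length implied by counts and FPKM equalled the union of all annotated exons in GENCODE M21, up to a factor of 1.00156 shared by all 29 genes. For Mcm2 this union spans 6956 bases, while its longest protein-coding transcript has 3371. Per kilobase of that transcript, Mcm2 stood at 55.5 ± 3.69 CPM, against 68.6 ± 2.50 CPM for Mcm4, the next of the ring, and 113 ± 6.85 CPM for Mcm7 (SD over 6 tumours). The union was 3.61 times the longest coding transcript for Tk1, 3.19 times for Slbp and of equal length for Mcm4. Tk1 accordingly moved from rank 14 to rank 7 of 29, and Slbp from rank 18 to rank 11, while Pcna, Rrm2 and Mcm7 kept the top ranks. Neither length is that of the transcripts present in these tumours, which gene counts do not show.

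**Figure D5:**
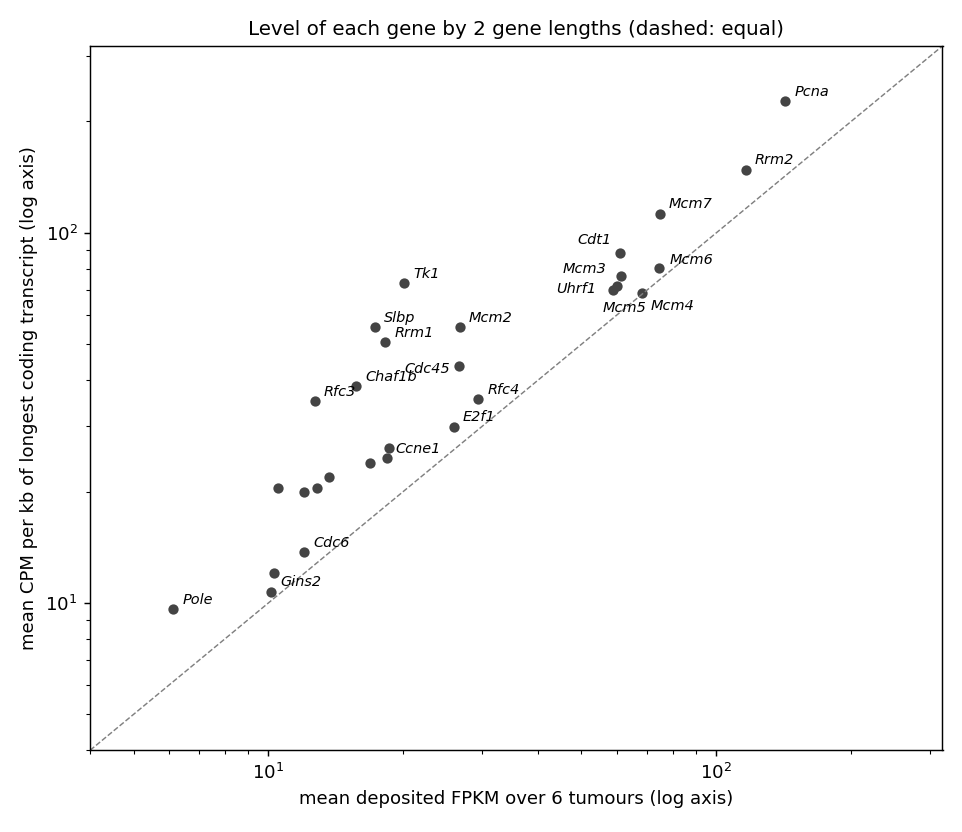
Mean level of each replication and G1/S gene over the 6 tumours by deposited FPKM (horizontal, union of exons) and by CPM per kilobase of the longest coding transcript (vertical), both on log axes, with selected genes named. Points far above the dashed line of equality, such as Tk1, Slbp and Mcm2, are genes whose union of exons is long beside the coding transcript.

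Reads of some of the 29 genes cannot be told apart from those of a neighbour, because the library kit does not mark strand. Exons of Chaf1a overlap those of Ubxn6 on the other strand over 4648 bases. Ubxn6 had 299 to 504 reads in a tumour, against at least 2248 for Chaf1a. Exons of Gins2 overlap those of Gse1 over 2758 bases, and there the neighbour had 901 to 1492 reads against at least 735 for Gins2. Mcm7, with at least 6091 reads, shares 321 exonic bases with Ap4m1 (539 to 814 reads) and 64 with Cops6 (2593 to 3514 reads). Rfc4, whose groups did not overlap, shares 194 exonic bases with Eif4a2 on the other strand, which had 8402 to 11811 reads in a tumour against at least 846 for Rfc4. Ccne2 shares 609 exonic bases with Ints8, and Cdc45 shares 209 with Ufd1. Processed pseudogene copies drew few reads where any were counted: Pcna-ps2 matched 781 bases of the Pcna transcript at 99.2% identity and had 23 to 47 reads, Gm5487 matched 2157 bases of Mcm7 at 97.7% and had 7 to 23, and Gm5648 matched 1590 bases of Uhrf1 at 98.3% and had 5 to 15. Stretches of 259 to 361 bases of the longest Tyms transcript also matched transcripts of 15 other genes at 95% identity or more, among them Reep3 and Map3k2. How the authors' counting assigned such reads is not given in the sources used here.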

How the data were processed

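RNA was sequenced from 3 shNgb and 3 shVec tumours, grouped by the sample titles. Per the labels' protocols, the kit was Illumina TruSeq RNA, on Trizol extracts. The submitters' processing notes name Bowtie 0.12.2, mm8 and mm10 but assign no step to them. How reads were counted is not given in the sources used. The authors deposited a matrix of raw read counts per Ensembl gene ID and a table of FPKM values per sample. FPKM was used only to compare levels between genes.

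Symbols came from GENCODE M21 (GRCm38) and named 54409 of 54532 IDs. The count model was edgeR 4.0.16 (R 4.3.3): default expression filter, TMM scaling, robust quasi-likelihood F-test, Benjamini-Hochberg adjustment over the 15203 genes kept, and a call at an adjusted p under 0.05. Standard errors come from the F statistic. Log2 CPM used a prior count of 2. Copies were sought with blastn 2.17.0 (at least 95% identity over 250 bases). Alternatives were RLE and upper quartile scaling, 2 other filters, DESeq2 1.42.0, limma-voom (limma 3.58.1), a replicate block, a threshold of 0.1 and leaving out each tumour.

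The members and lists were chosen with earlier results of these data known. Named were all members, Ngb, cell markers, and the 4 genes of smallest p of the other replication and G2/M lists. The fitting steps were tested on simulated data, with changed genes drawn from all tested genes. There edgeR recovered 4% of 1.25-fold and 32% of 1.5-fold changes, so among all tested genes small changes would mostly go uncalled. The 29 genes had a smaller median standard error (0.09 against 0.15), and recovery was not simulated for them.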

Additional observations from a re-analysis of the deposited data

How the results depend on the processing

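Of the 29 genes, 0 were called under each alternative run, among them DESeq2, limma-voom, the replicate block and a threshold of 0.1. The median log2 fold change of the 29 genes was 0.0619. It moved by less than 0.0618, the SD of the median deviation between tumours of a group. These values are nearly equal, so this yardstick would hardly register loss of the whole lean. The median log2 fold change lay between 0.02 and 0.10 over the omissions of a tumour, where 19 to 26 genes were positive. Over all genes, calls numbered 5 with DESeq2, against 0 in the main edgeR fit. With edgeR itself they numbered 3 without a filter beyond 1 read and 1 with the replicate block. Deviations of same-numbered tumours correlated at 0.26, -0.14 and -0.10, so the numbers were not taken to pair the tumours. Genes without overlap numbered 5 with upper quartile scaling and 4 to 12 over the omissions (12 without shNgb replicate 2, and 7 without shNgb replicate 3, shVec replicate 1 or shVec replicate 2), against 3, where a group of 2 samples is easier to separate. The counts of these runs were not compared with the share of all genes at the same setting. An unadjusted p under 0.05 was reached by Cdc6 and Pcna without shNgb replicate 2, by Tyms without shVec replicate 1 and by Ccne2 without shVec replicate 2. Of 377 single-gene values, 356 kept their sign. Signs turned for Mcm10 with upper quartile scaling (0.00064) and, over the omissions of a tumour, for Mcm3 (-0.053 to 0.11), Mcm7 (-0.088 to 0.024), Mcm10 (-0.12 to 0.027), Gins2 (-0.0033 to 0.19), Pola1 (-0.054 to 0.090), Pold1 (-0.069 to 0.055), Pole (-0.055 to 0.11), Rfc3 (-0.012 to 0.19), Rrm2 (-0.0077 to 0.16) and Chaf1b (-0.017 to 0.18), none of them called. The cause was not tested.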
